A study of Homo sapiens with 6 samples.

Results

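A group of 36 genes had values under 5 in every library of control K1 cells and of 10 or more in every miR-31 KO library. K1 is an established human papillary thyroid carcinoma line. The miR-31 KO cells were K1 transfected with a guide RNA (sgRNA) against miR-31, and the controls were K1 transfected with a control; both were grown in DMEM with 10% FBS, and each group has 3 RNA sequencing libraries. Although the design text of the series calls the profiles duplicate, titles number 3 libraries per group, and all 3 were used here. No label ties the libraries to separate cultures, and their spread may be technical. The labels do not say whether the edited cells were a pool or a clone, and other differences between the transfected populations cannot be told apart from the targeting of miR-31. The deposited table gives normalized read counts, that is read counts per gene scaled between libraries, for 986 genes, and each of them has an adjusted p under 0.05 in the authors' deposited table. Members were chosen from these values: all 3 control values under 5 and all 3 miR-31 KO values at 10 or more, with genes of 12 name prefixes (ZNF, SLC, KCN, PCDH, HOX, MMP, AKR1C, GAGE, XAGE, MAGE, CXCL and CCL) and 4 single genes left out by name. The thresholds without these exclusions gave 47 genes, of which 11 were left out by name, among them CDH11, CCL28, PRDM9 and 5 ZNF genes. Of the listed genes, 593 of 986 genes (60.1%) were higher in miR-31 KO, and all 36 members are higher because the rule requires it.

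MicroRNAs are short RNAs that guide a silencing complex to messenger RNAs, mostly through pairing of the seed, the bases near the 5′ end, with sites in 3′ UTRs. Losing a microRNA relieves its direct targets, usually by modest amounts, and changes further genes indirectly. Genes that are silent in one cell state and transcribed in another are often genes of other tissues or of development, held off by chromatin or by missing activators. Such genes are described here by function, by the tissue they are best known from, by position and by sequence.

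The seed of the targeted microRNA is shown first, since sites in the members are matched to it further on; capitals mark bases 2 to 8 (RefSeq, GRCh38.p14, chromosome 9 from 21512158 to 21512178, minus strand).
hsa-miR-31-5p: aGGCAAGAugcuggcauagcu

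Of the 5 genes first named for this group, 3 met the rule. TMPRSS15 had 487, 540.4 and 636 normalized counts in the miR-31 KO libraries, against 4.30, 1.004 and 4.93 in the controls. ANOS1 had 49.7, 67.2 and 76.1 in miR-31 KO and was listed at 0 in every control. RNF175, which encodes a RING finger protein, had 20.2, 24.2 and 21.7 in miR-31 KO and was also listed at 0 in every control. EPB41L3, a membrane skeleton protein, had 753, 832 and 403 in miR-31 KO, against 9.49, 1.004 and 0.964 in the controls. DIP2C had 488, 551 and 384 in miR-31 KO, against 6.37, 2.01 and 1.95 in the controls. For both of the last genes only control replicate 1 was at 5 or more, so they are not members and are left out of the counts below.

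**Figure D1:**
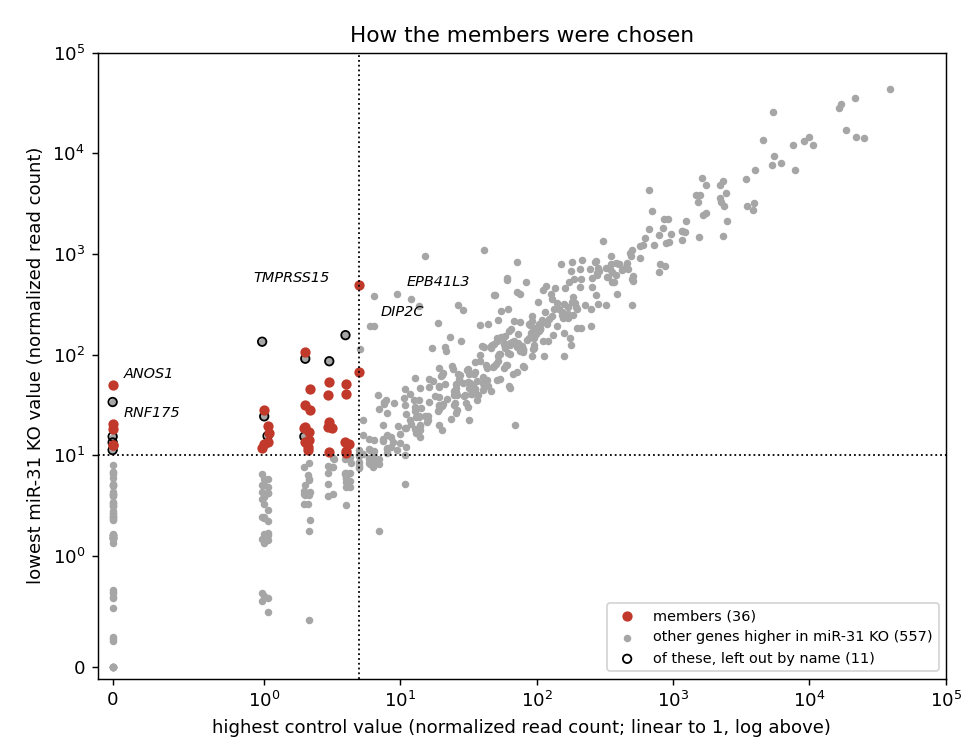
Lowest of the 3 miR-31 KO values against the highest of the 3 control values for the 593 genes higher in miR-31 KO (normalized read counts, linear to 1 and logarithmic above). Dotted lines are the thresholds of 10 and 5. The 36 members lie in the upper left field, and EPB41L3 and DIP2C lie just right of it.

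The thresholds cut through a continuous range. Just inside the control threshold were NKX2-5, TMPRSS15 and BARHL2, with highest control values of 4.94, 4.93 and 4.21, and just outside it were CCR4, RCSD1 and ICAM2, with 5.01, 5.01 and 5.27. Just inside the miR-31 KO threshold were ANKRD1, FAM153A and NAT8L, with lowest miR-31 KO values of 10.4, 10.7 and 11.1. Just outside it were TLX2, TEX48 and NSUN7, with 9.81, 9.61 and 9.23. A total of 181 listed genes had all controls under 5, all of them higher in miR-31 KO, and 134 of these had a miR-31 KO value under 10. The number of members also depended on how libraries were scaled: it was 24 after scaling to equal sums over the listed genes and 12 after quantile normalization over them. All members kept after either scaling were among the 36. The listed genes are a selection, and their sum is larger in every miR-31 KO library than in any control library. Scaling on them tends to lower miR-31 KO values against control values. The smaller numbers follow in part from this and do not test the membership.

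The control values of the members were of the size of single reads. Of their 108 control values, 26 were listed at 0, 22 lay above 0 and under 0.1, none lay between 0.1 and 0.9, and 60 were 0.9 or more. In control replicate 2 all 36 values lay within 0.01 of a whole number. How the authors made the values between 0 and 0.1 is not given in the sources used here. Only 5 members, ANOS1, PREX2, RNF175, RBCK1 and TBC1D20, were listed at 0 in all controls, and 10 had 0.9 or more in all controls. Of all 986 listed genes, 68 were listed at 0 in all controls. The depth of the libraries is unknown from this table, so a gene listed at 0 is not shown to be silent, and no fold is computed against such a control. In the authors' deposited table the members' log2 fold changes, miR-31 KO over control, ran from 2.52 for ANKRD1 to 9.02 for ANOS1, with a median of 4.80. The median over the other 557 higher genes was 2.06, and in the authors' deposited table the adjusted p-values of the members ran from 2.29e-89 to 0.00225. The rule used these same libraries, so the values describe the members and test nothing.

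**Figure D2:**
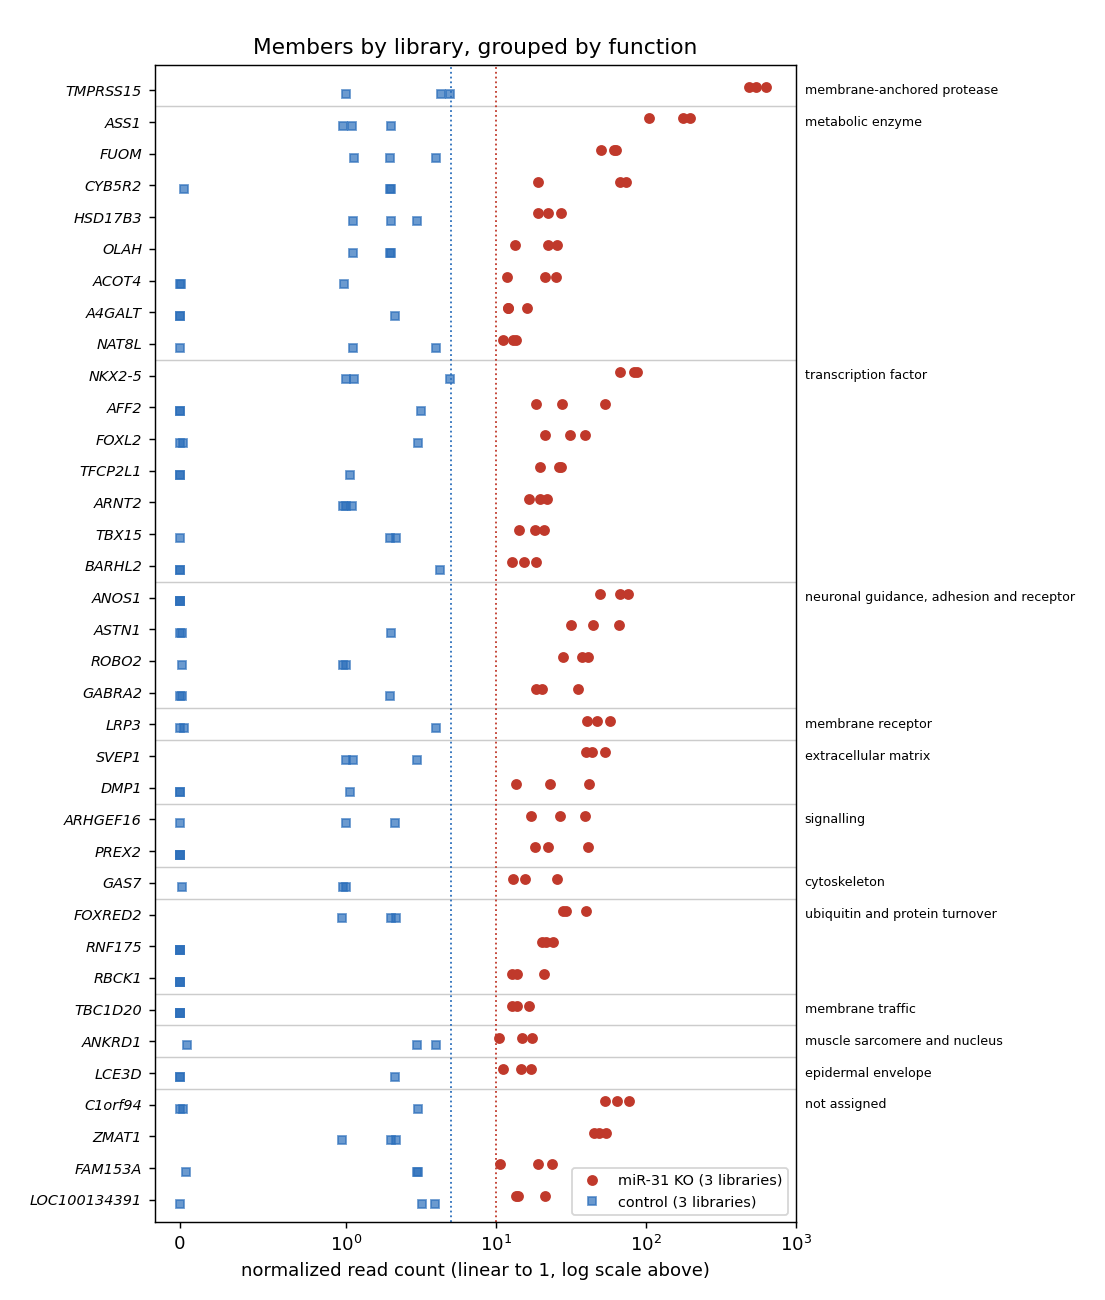
Normalized read count of each member in the 3 miR-31 KO libraries (circles) and the 3 control libraries (squares), linear to 1 and logarithmic above, grouped by function. Dotted lines mark 5 and 10. TMPRSS15 and ASS1 lie above 100 in every miR-31 KO library, while the other members lie between 10.4 and 87.3.

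In miR-31 KO most members were present at low values. The mean over the 3 libraries was between 10 and 20 in 13 members, between 20 and 50 in 16, between 50 and 100 in 5, and above 100 in TMPRSS15 and ASS1 alone. The median of these means was 25.4, against 82.8 over the other higher genes. The rule held the members' control values under 5, while the other higher genes had a median control mean of 20.6. This difference is therefore not free of the selection. TMPRSS15 alone held 31.5% of the summed counts of the members in miR-31 KO. Levels of different genes were compared per kilobase of annotated exon (GENCODE 29), which was available for 35 members. On this scale TMPRSS15 was at 131 ± 17.9 normalized counts per kb (SD, n = 3), ASS1 at 52.6 ± 16.04, FUOM at 45.3 ± 5.23 and NKX2-5 at 37.8 ± 4.92. The spreads of ASS1, FUOM and NKX2-5 overlapped, while TMPRSS15 lay above them in every library. The lowest was GAS7 at 1.78 ± 0.646 per kb.

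Of the classes, which were assigned by hand after the members were known, metabolic enzymes were the largest with 8 members. No class share over all 986 genes was made to set beside this class or those below. ASS1, argininosuccinate synthase of the urea cycle and of arginine synthesis (chromosome 9, 130444929 to 130501274, plus strand, GRCh38), had 177, 199 and 105 normalized counts in miR-31 KO, against 1.098, 2.003 and 0.979 in the controls. Its lowest miR-31 KO value was in replicate 3, and all 3 lay far above the controls. ASS1 has many processed pseudogenes elsewhere in the genome, and how reads shared with them were counted is not given in the sources used here. FUOM, a mutarotase that interconverts forms of fucose, had 61.2, 50.5 and 62.9 in miR-31 KO, against 1.13, 4.01 and 1.96 in the controls. CYB5R2, a cytochrome b5 reductase, had 73.7, 66.8 and 19.0 in miR-31 KO, against 0.0256, 2.003 and 1.97 in the controls. Its value in replicate 3 was 0.271 of the mean of replicates 1 and 2, the lowest such ratio among the members.

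Several of these enzymes act on lipids, steroids and glycans. HSD17B3, which makes testosterone from androstenedione in the testis, had 19.1, 22.3 and 27.2 in miR-31 KO, against 1.12, 2.004 and 2.96 in the controls. OLAH, a thioesterase that releases medium-chain fatty acids and is known from mammary gland, had 22.4, 13.4 and 25.5 in miR-31 KO, against 1.11, 2.004 and 1.97 in the controls. As for every member, the rule keeps the groups from overlapping. ACOT4, a peroxisomal acyl-CoA thioesterase, had 21.2, 25.3 and 11.8 in miR-31 KO and no control value above 0.987. A4GALT, which makes the glycolipid Gb3, had 16.02, 11.96 and 12.1 in miR-31 KO, and 2.11, 0.000322 and 0 in the controls. NAT8L, which makes N-acetylaspartate in neurons, had 13.7, 11.1 and 13.1 in miR-31 KO, against 1.11, 4.01 and 0 in the controls. Of a list of 320 enzymes of lipids, steroids, retinoids and xenobiotics, 28 were in the table, 19 higher and 9 lower, and HSD17B3 was the only one among the members. The list was made of name patterns and does not hold OLAH, ACOT4 or A4GALT.

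Transcription factors gave 7 members, most of them known from organs other than the thyroid. NKX2-5, the homeobox factor of the early heart that in mouse is also found in the thyroid primordium, had 87.3, 67.6 and 82.8 in miR-31 KO, against 1.13, 1.003 and 4.94 in the controls. It lies on chromosome 5 from 173232109 to 173235357 (minus strand, GRCh38). FOXL2, a forkhead factor of ovarian granulosa cells, had 39.3, 31.01 and 21.4 in miR-31 KO, against 0.0193, 3.004 and 0 in the controls. TFCP2L1, a factor of kidney collecting ducts that in mouse also belongs to the naive pluripotency network, had 26.2, 19.6 and 27.1 in miR-31 KO and at most 1.06 in the controls. Of these 3 genes, NKX2-5 was the highest in every miR-31 KO library, and its control reads were mostly in replicate 3.

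The remaining factors were lower or more variable. AFF2, the FMR2 gene of the fragile site FRAXE, had 18.6, 53.5 and 27.6 in miR-31 KO, against 3.16, 0.000481 and 0 in the controls. ARNT2, a basic helix-loop-helix partner protein of the hypothalamus, had 16.6, 19.8 and 21.9 in miR-31 KO, against 1.09, 1.002 and 0.981 in the controls. TBX15, a T-box factor of limb skeleton and muscle in mouse, had 14.1, 20.8 and 18.3 in miR-31 KO and at most 2.14 in the controls. BARHL2, a homeobox factor of retina and brain, had 12.8, 15.5 and 18.4 in miR-31 KO, and 4.21, 0.000638 and 0 in the controls. The BARHL2 control reads were thus in replicate 1 alone. Of a list of 317 developmental transcription factors 21 were in the table, 17 higher and 4 lower, including FOXL2NB, which matched by its name only. The members among them were NKX2-5, FOXL2 and TBX15.

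From textbook knowledge 9 of the 36 members are best known from the nervous system: ANOS1, ASTN1, ROBO2, GABRA2, AFF2, ARNT2, BARHL2, GAS7 and NAT8L. No tissue was assigned to 14 members, and the assignments were made by hand after the members were known, with no such share over all 986 genes to set beside them. ANOS1 encodes anosmin-1, an extracellular adhesion protein needed for the migration of olfactory and GnRH neurons, and lies on chromosome X from 8528874 to 8732186 (minus strand, GRCh38). ASTN1, an astrotactin of glial-guided neuronal migration in mouse, had 66.2, 44.7 and 31.7 in miR-31 KO, and 0.0129, 2.003 and 0 in the controls. ROBO2, a receptor for the SLIT guidance proteins, had 37.5, 28.1 and 41.2 in miR-31 KO and at most 1.002 in the controls. GABRA2, a subunit of the GABA-A receptor, had 20.4, 18.6 and 35.3 in miR-31 KO, against 0.0129, 0.000322 and 1.98 in the controls. GAS7, a growth-arrest protein of neurite formation in mouse, had 13.004, 25.4 and 15.5 in miR-31 KO and at most 1.002 in the controls.

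The wider lists for neurons held genes of both directions. Of 125 axon guidance and neuronal adhesion genes 23 were in the table, 13 higher and 10 lower. SLIT2, a ligand of ROBO receptors, had 621, 647 and 1034 in miR-31 KO, against 152, 382 and 353 in the controls. Of 176 genes of synapses and excitability 18 were in the table, 11 higher and 7 lower, and GABRA2 was the only member. Of 25 neural and glial markers 3 were in the table: NES and SOX2 were higher and MAP2 was lower. In the authors' deposited table the median log2 fold change was 1.38 over the listed guidance genes and 2.27 over the listed synapse genes, against 1.27 over all 986 genes.

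The cell surface and matrix classes had few members. TMPRSS15 is enteropeptidase, the membrane-anchored duodenal protease that activates trypsinogen, and lies on chromosome 21 from 18269116 to 18485879 (minus strand, GRCh38). Of 60 membrane-anchored and related serine proteases 4 were in the table, all higher: TMPRSS15, CORIN, PRSS3 and TMPRSS11E. CORIN had 31.4, 20.1 and 44.997 in miR-31 KO, against 13.9, 9.02 and 6.86 in the controls. The liver and intestine list had TMPRSS15 and CPS1, a urea cycle enzyme, which had 896, 872 and 1223 in miR-31 KO, against 216, 186 and 196 in the controls. LRP3, of the LDL receptor family, had 40.7, 47.3 and 57.8 in miR-31 KO, and 0.0256, 0.000636 and 3.95 in the controls. SVEP1, a large matrix protein, had 53.3, 43.8 and 39.8 in miR-31 KO, against 1.11, 1.003 and 2.96 in the controls. DMP1, a phosphoprotein of dentin and bone mineral, had 13.5, 23.1 and 41.7 in miR-31 KO and at most 1.06 in the controls. DMP1 and SVEP1 are not on the matrix list, of whose 157 genes 22 were in the table, 8 higher and 14 lower.

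Signalling and protein turnover gave 5 members. PREX2, an exchange factor for Rac, had 18.3, 41.1 and 22.4 in miR-31 KO and was listed at 0 in every control. ARHGEF16 had 17.1, 39.3 and 26.9 in miR-31 KO, against 2.12, 1.002 and 0 in the controls. Both were highest in miR-31 KO replicate 2. FOXRED2, a flavoprotein of protein degradation at the endoplasmic reticulum, had 27.9, 39.9 and 29.5 in miR-31 KO, against 2.15, 2.004 and 0.976 in the controls. RBCK1, a subunit of the linear ubiquitin ligase complex, had 20.8, 12.7 and 13.8 in miR-31 KO and was listed at 0 in every control. Of 334 ubiquitin ligases and RING or TRIM genes 18 were in the table, 8 higher and 10 lower.

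The other members came from muscle, skin and membrane traffic or have no role assigned. ANKRD1, an ankyrin repeat protein of heart muscle, had 10.4, 17.4 and 14.8 in miR-31 KO, against 0.0441, 4.01 and 2.95 in the controls, and LCE3D, of the cornified envelope, had 17.3, 14.6 and 11.2 in miR-31 KO, and 2.11, 0.000322 and 0 in the controls. TBC1D20, a Rab GTPase-activating protein, had 12.7, 13.7 and 16.7 in miR-31 KO and was listed at 0 in every control. C1orf94 had 53.3, 64.5 and 77.02 in miR-31 KO, against 0.0193, 3.004 and 0 in the controls. ZMAT1 had 45.4, 49.02 and 54.2 in miR-31 KO, against 2.15, 2.004 and 0.976 in the controls. LOC100134391 had 14.02, 13.6 and 21.2 in miR-31 KO, against 3.22, 0.0011 and 3.94 in the controls. FAM153A had 10.7, 23.5 and 19.2 in miR-31 KO, against 0.038, 3.005 and 2.96 in the controls. FAM153A has near-identical copies and LCE3D close relatives, so their reads may have been split. In addition, 12 of 35 members overlap an annotated gene on the opposite strand. Some, TMPRSS15 among them, overlap another annotated gene on the same strand. No such share was counted over the other listed genes, and the libraries' strand setting is not given in the sources used here.

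On the marker lists of other cell types TMPRSS15 was the only member. These lists are name patterns and leave out some members assigned by hand to the same tissues. NKX2-5 and ANKRD1, assigned to heart, are not on the muscle and heart list. Of 47 leukocyte markers 7 were in the table, 6 of them higher, and their summed counts were 303 to 384 in miR-31 KO and 206 to 225 in control libraries. Of 24 fibroblast and smooth muscle markers 3 were in the table, with sums of 28.3 to 48.8 in miR-31 KO and 13.2 to 34.4 in control libraries. Of 22 endothelial markers 4 were in the table, KDR and TIE1 higher and ECSCR and ERG lower, with sums of 4536 to 6181 in miR-31 KO and 1479 to 2312 in control libraries. The highest of these genes was TIE1, with 5636, 5425 and 3853 in miR-31 KO, against 1587, 675 and 725 in the controls. The sums of the 3 listed neural and glial markers were 904 to 1100 in miR-31 KO and 257 to 442 in control libraries. Of 49 muscle and heart markers ACTA1 and MYH13 were in the table, with sums of 6.72 to 14.9 in miR-31 KO and 0.00048 to 2.12 in control libraries. Of 23 thyroid differentiation genes 4 were in the table, 3 of them lower, and of 96 epithelial marker genes 9, 6 of them lower. Marker genes outside the table were not analysed here, MIR31 among them, so the targeting could not be checked. The part of other cell types in the members' values was not tested. In bulk RNA, a few cells with much of a transcript and many cells with little of it cannot be told apart.

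Spread among the 3 miR-31 KO libraries differed between members. The coefficient of variation ran from 8.88% for ZMAT1 to 56.01% for CYB5R2, with a median of 20.5%, against 27.8% over the other higher genes. It was under 25% in 21 members and over 50% in CYB5R2, AFF2 and DMP1. Replicate 3 stood apart in CYB5R2, where it was low, and in DMP1, where it was high, and replicate 2 was high in AFF2. The lowest value was in miR-31 KO replicate 1 for 19 members, in replicate 2 for 10 and in replicate 3 for 7. Among the other higher genes replicate 3 was lowest for 294 of 557 (52.8%). The ratio of replicate 3 to the mean of replicates 1 and 2 had a median of 1.07 over the members and 0.831 over the other higher genes. These spreads, shares and ratios are descriptions. The rule required at least 10 in every miR-31 KO library of a member, which the other higher genes did not have to meet. Differences between members and the other higher genes are therefore not free of the selection. Summed over the members, the miR-31 KO libraries had 1669, 1820 and 1799 normalized counts and the control libraries 38.9, 42.1 and 46.3.

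**Figure D3:**
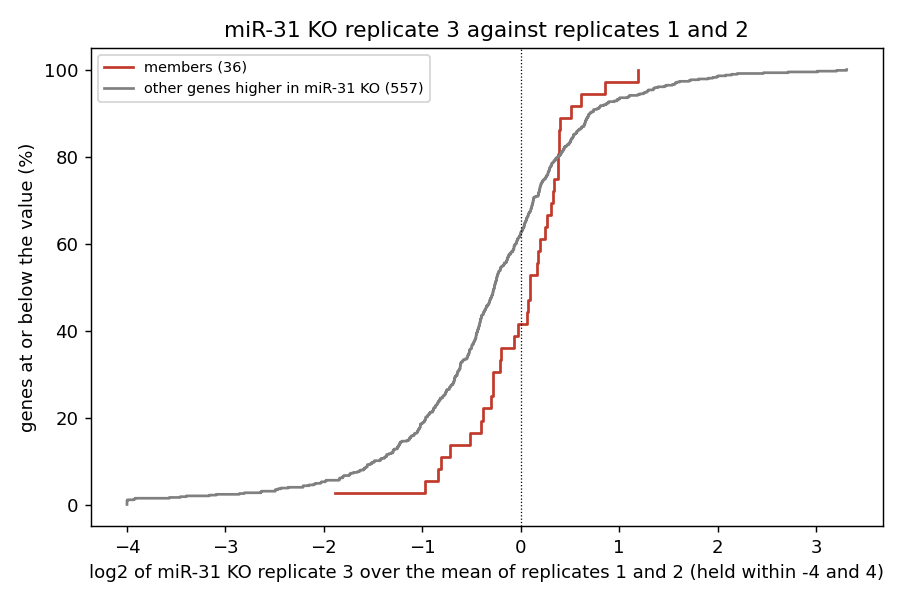
Cumulative share of genes (vertical axis, %) by the log2 ratio of miR-31 KO replicate 3 to the mean of miR-31 KO replicates 1 and 2, for the 36 members and the other 557 higher genes. The members' curve lies to the right at the median, at a ratio of 1.07 against 0.831.

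The members were spread over 17 chromosomes. Chromosome 1 had 6 of the 35 members that could be placed in GENCODE 29 (17.1%, against 10.6% of the placed higher genes), and chromosome 4 had 4, RNF175, GABRA2, DMP1 and NAT8L (11.4%, against 6.31% of the placed higher genes). Chromosomes 9, 10 and X had 3 each. No member lay on chromosome 16, where 12 of 49 listed genes were higher, or on chromosomes 6, 7, 12, 13 and 18. The counts are small, and no difference in share was tested. The nearest other listed gene lay within 1 Mb for 24 members, and it was higher in miR-31 KO for 17 of these and lower for 7, where 60.1% of all listed genes were higher. RBCK1 and TBC1D20 are each other's nearest listed gene and both count among the 17, although the rule requires them to be higher.

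Only RBCK1 and TBC1D20 lay within 1 Mb of another member. They are neighbours on chromosome 20, at 407498 to 430966 on the plus strand and 435480 to 462553 on the minus strand (GRCh38), and their ends lie 4514 bp apart. The 6 other listed genes beside them, C20orf96, ZCCHC3, SOX12, NRSN2, TRIB3 and SRXN1, were also listed at 0 in every control and missed the rule only by their miR-31 KO values. The highest of these was 14.3, for TRIB3 in replicate 3. Among all 986 listed genes, 68 were listed at 0 in every control. Summed over all 8 genes, the miR-31 KO libraries had 58.2, 60.8 and 76.4 normalized counts and the control libraries were at 0. These genes were grouped with their control values known, so the control sum of 0 was fixed in advance. Both members are used by most cell types, unlike the tissue-restricted genes above.

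Several other members had listed genes close by, of both directions. The nearest listed gene was lower in miR-31 KO for FUOM (PAOX), ACOT4 (ACOT1), ROBO2 (ZNF717), TFCP2L1 (GLI2), NKX2-5 (RPL26L1), FOXRED2 (APOL3) and ANKRD1 (FGFBP3). GLI2, a transcription factor of Hedgehog signalling, had 404, 420.4 and 308 in miR-31 KO, against 1065, 1084 and 949 in the controls. FOXL2NB lies 94 bp from FOXL2 on chromosome 3 and had 11.98, 4.12 and 6.02 in miR-31 KO and 0 in every control. DMP1 lies in a run of mineralization genes on chromosome 4: DSPP, of dentin, had 9.95, 11.3 and 5.92 in miR-31 KO, against 0.0256, 0.000636 and 3.95 in the controls, and IBSP, of bone, had 1.63, 6.01 and 9.81 against 0. LCE3D lies in the epidermal differentiation region of chromosome 1, where HRNR had 469, 410 and 353 in miR-31 KO, against 104, 130.2 and 111 in the controls. FLG and the small proline-rich genes SPRR2A and SPRR2D were higher there too, while S100A2 was lower, with 2890, 2971 and 4049 in miR-31 KO, against 7158, 8243 and 9236 in the controls. PAPPA2, beside ASTN1, had 1515, 1648 and 721 in miR-31 KO, against 325, 200.4 and 171 in the controls. ACOT4 differed from its close relative ACOT1, 47912 bp away, which had 28.7, 27.5 and 26.1 in miR-31 KO, against 55.2, 63.1 and 49.1 in the controls. ACOT1 and ACOT4 share much of their sequence, and whether reads were divided between them was not tested.

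Promoter sequence was available for 29 members in RefSeq (GRCh38.p14), as windows of 250 bases before to 50 bases after the start. The members without an entry were NKX2-5, SVEP1, PREX2, ARNT2, GAS7, OLAH and TBX15. A window was called CpG-rich where the CpG count was at least 0.6 of that expected from its C and G content and GC content was at least 50%. This held for 20 of 29 members (69.0%), 226 of 427 other higher genes (52.9%) and 12813 of all 27305 windows (46.9%). The RefSeq start lay within 1 kb of the gene's GENCODE start for 22 members, of which 17 (77.3%) were CpG-rich, against 54.7% of the other higher genes with such a start. The 29 windows are few, and the shares were not tested against each other.

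**Figure D4:**
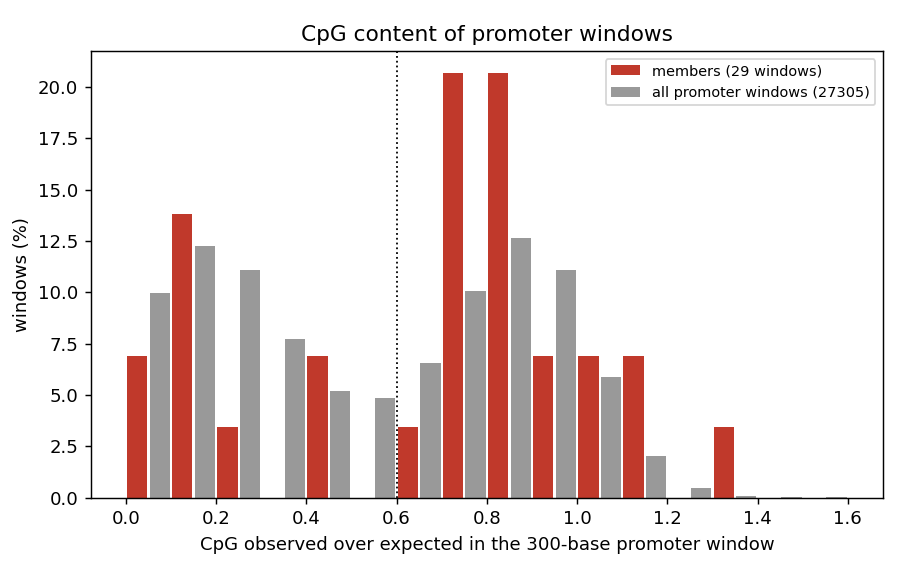
Share of promoter windows (vertical axis, %) by the ratio of observed to expected CpG in the 300-base window, for the 29 members with a window and for all 27305 windows. The dotted line is 0.6, and 20 of 29 member windows are CpG-rich, against 46.9% of all windows.

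Windows are printed for TMPRSS15, whose window holds no CpG, and for the 4 members listed at 0 in every control that have a window. All 4 are CpG-rich, as are 20 of the 29 member windows, so this does not set them apart. Capitals mark CpG, and each sequence reads 5′ to 3′ on the gene's strand. TMPRSS15 is chr21:18403736-18404035, ANOS1 chrX:8732088-8732387, RNF175 chr4:153759975-153760274, RBCK1 chr20:408049-408348 and TBC1D20 chr20:462484-462783. They have 0, 32, 29, 36 and 34 CpG. The TMPRSS15 start used by RefSeq lies 82094 bp inside the GENCODE gene, so that window may not be the start used in K1.
TMPRSS15: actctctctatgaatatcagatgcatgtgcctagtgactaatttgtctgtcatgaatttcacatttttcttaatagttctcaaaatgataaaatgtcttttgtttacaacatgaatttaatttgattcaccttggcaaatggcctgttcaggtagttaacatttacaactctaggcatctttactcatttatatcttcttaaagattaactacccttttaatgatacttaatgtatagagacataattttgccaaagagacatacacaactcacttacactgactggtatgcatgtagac
ANOS1: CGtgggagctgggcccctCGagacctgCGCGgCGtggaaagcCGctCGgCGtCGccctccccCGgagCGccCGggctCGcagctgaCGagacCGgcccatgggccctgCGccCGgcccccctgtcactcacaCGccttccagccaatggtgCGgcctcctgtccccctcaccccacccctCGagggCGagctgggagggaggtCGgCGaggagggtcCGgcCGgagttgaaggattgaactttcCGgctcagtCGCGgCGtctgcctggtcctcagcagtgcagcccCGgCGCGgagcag
RNF175: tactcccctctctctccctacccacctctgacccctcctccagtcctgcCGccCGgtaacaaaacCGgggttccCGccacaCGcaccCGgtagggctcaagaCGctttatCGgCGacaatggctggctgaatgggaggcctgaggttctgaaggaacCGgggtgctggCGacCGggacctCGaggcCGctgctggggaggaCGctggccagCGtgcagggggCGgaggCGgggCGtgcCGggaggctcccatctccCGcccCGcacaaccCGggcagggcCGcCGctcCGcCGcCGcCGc
RBCK1: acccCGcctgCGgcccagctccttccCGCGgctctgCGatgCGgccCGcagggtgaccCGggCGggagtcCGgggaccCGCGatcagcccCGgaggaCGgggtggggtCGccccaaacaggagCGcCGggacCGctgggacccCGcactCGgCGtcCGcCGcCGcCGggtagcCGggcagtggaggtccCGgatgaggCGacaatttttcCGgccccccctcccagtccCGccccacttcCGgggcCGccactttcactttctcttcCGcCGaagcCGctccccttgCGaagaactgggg
TBC1D20: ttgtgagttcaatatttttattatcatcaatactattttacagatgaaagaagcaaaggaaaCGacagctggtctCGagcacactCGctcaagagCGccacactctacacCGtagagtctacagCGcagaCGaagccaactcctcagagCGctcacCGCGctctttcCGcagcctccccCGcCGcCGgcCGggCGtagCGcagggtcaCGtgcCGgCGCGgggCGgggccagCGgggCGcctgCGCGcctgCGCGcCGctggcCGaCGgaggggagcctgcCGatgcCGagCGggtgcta

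Short motifs were searched on both strands of the windows. The Sp1 box GGGCGG was in 17 of 29 members (58.6%, against 44.6% of all windows), the TATA box TATAAA in 3 (10.3%, against 11.95%), the AP-1 site TGANTCA in 3 (10.3%, against 7.76%) and the TEAD motif GGAATG in 5 (17.2%, against 14.05%). Over the 427 other higher genes with a window, the shares were 51.8%, 12.9%, 7.96% and 15.5% in the same order. No difference between these shares was tested. The Sp1 box overlaps with CpG content because it holds a CpG. The windows with a TEAD motif were those of ACOT4, ANKRD1, ASTN1, FAM153A and GABRA2. The GABRA2 window has its start 84930 bp from the gene's GENCODE start. That of TMPRSS15, which held a TATA box match on the opposite strand and an AP-1 match, has its start 82094 bp away. ANKRD1, which is a known target of the YAP and TEAD factors, had 2 matches, 220 and 128 bases before the start, and its window is printed with them in capitals (chr10:90921038-90921337, minus strand). A match is only a run of letters and does not show binding.
ANKRD1: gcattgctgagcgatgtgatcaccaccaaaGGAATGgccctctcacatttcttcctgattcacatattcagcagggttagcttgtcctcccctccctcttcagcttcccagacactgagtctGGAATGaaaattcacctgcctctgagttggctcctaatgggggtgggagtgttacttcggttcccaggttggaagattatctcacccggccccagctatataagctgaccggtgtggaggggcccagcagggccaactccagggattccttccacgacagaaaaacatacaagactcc

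The last comparison concerned sites for the miR-31-5p seed in annotated 3′ UTRs. A site was a match to bases 2 to 8 (TCTTGCC, 7mer-m8), the same followed by A (8mer), or a match to bases 2 to 7 followed by A (CTTGCCA, 7mer-A1), in the longest 3′ UTR. Of 35 members with a 3′ UTR 7 had a site (20%, 95% Wilson interval 10.04% to 35.9%), against 108 of 547 other higher genes (19.7%) and 185 of 955 listed genes (19.4%). No member had an 8mer, against 39 of 955 listed genes (4.08%). The 7 members were TFCP2L1, FOXRED2, CYB5R2, AFF2, GAS7, NAT8L and PREX2. TFCP2L1 had 5 sites in a 3′ UTR of 7754 bases and NAT8L 3 in 4962 bases. None of the 36 members was on the list of 57 reported miR-31 targets, of which FGF7, ICAM1, SOX4 and LAMA3 were in the table.

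The sites below are 1 for each of these members other than PREX2, with the match in capitals and 10 bases on either side, 5′ to 3′ on the transcript; coordinates are of the match (GRCh38). TFCP2L1 is chr2:121223224-121223230, FOXRED2 chr22:36489445-36489451, CYB5R2 chr11:7665271-7665277, AFF2 chrX:148995535-148995541, GAS7 chr17:9913225-9913231 and NAT8L chr4:2068785-2068791.
TFCP2L1: ttcgtctttgTCTTGCCtctggttcct
FOXRED2: gtctgtgtcaCTTGCCAcacactgcct
CYB5R2: tcaaaagtgcCTTGCCAtgtaccttcg
AFF2: agattgcagtTCTTGCCcctttttgcg
GAS7: ccccataatcCTTGCCAtccctacaag
NAT8L: ccctggccccTCTTGCCcctcagtgga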

How the data were processed

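RNA of 3 miR-31 KO and 3 control K1 libraries was sequenced, and the authors deposited 1 table of 986 genes. Its values are a signal, normalized read counts per gene and library, made by the authors; the log2 fold change, p-value and adjusted p-value per gene are the authors' deposited values. The submitters' processing notes name Bowtie2, HISAT, RSEM, hg19 and hg38, without roles. Their versions, like the normalization, strand setting and test, were not given in the sources used here. Original reads were not recovered, so depth per library is unknown and the precision cannot be given as counts. Sums over the listed genes, which are not library depths, were 943360, 929680 and 655191 in miR-31 KO and 617681, 573729 and 545354 in control libraries.

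Members were selected from the 6 columns of libraries, and the members and gene lists were chosen with earlier results of these data known. No test was made of values that chose the members. Positions and exon lengths came from GENCODE 29 (GRCh38), matched by symbol for 966 of 986 genes and 35 of 36 members. Promoter windows and the microRNA came from RefSeq (GRCh38.p14). Intervals are 95% Wilson intervals and cover counting error only. The 24 lists were name patterns, and roles and tissues were assigned by hand from textbook knowledge after the members were known. Genes to name were the 5 given genes, the 12 members highest in mean and the 12 highest in log2 fold change, members on a list (up to 4 a list), members within 1 Mb of another, members with an 8mer, and the genes at either side of each threshold. Other members and all other genes named were chosen after their values were seen. Alternatives were other thresholds, scalings, site types, UTRs, distances and each library left out. Python 3.11.15, pandas 2.3.3, numpy 2.4.6, scipy 1.17.1 and matplotlib 3.10.9 were used.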

Additional observations from a re-analysis of the deposited data

How the results depend on the processing

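The number of members, 36, depended on the thresholds and scaling. It was 68 with control values under 10, 5 with all controls listed at 0, 73 with a miR-31 KO minimum of 5, 14 with a minimum of 20, 12 after quantile normalization and 102 with group means in place of single libraries. Leaving out 1 library at a time gave 42 to 51 members, with a median miR-31 KO mean of 20.7 to 27.5 and a share with a seed match of 16.3% to 20.9%. The median, 25.4 with all libraries, was 21.1 with replicate 2 of miR-31 KO left out and 20.7 with replicate 3 left out. Without control replicate 1 and miR-31 KO replicate 3 together, an alternative chosen after seeing the data, there were 67 members with a median of 21.4. The limit of promoter starts within 1 kb was also chosen after seeing the data. Counting 8mers alone, the share with a seed match was 0%, and within 5 Mb 4 members had another member nearby, against 2 within 1 Mb. Changing the scaling moved values as well: after quantile normalization 28 of 36 miR-31 KO means and 5 of 36 control means stayed within 1 SD, and after scaling to equal sums 32 of 36 miR-31 KO means and 35 of 36 control means did. Both scalings used only the listed genes, whose sums are larger in miR-31 KO, so they tend to lower miR-31 KO values against control values. No paired analysis was possible because the results come from no test: these values chose the members and are given as a description. Depth is unknown, so values of 0 to 5 cannot be given a counting error.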
